A study of Rattus norvegicus with 4 samples.

Results

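The 10 genes described here carry copper across membranes, hand it between proteins, or use it to oxidise iron: Cp, Heph, Atp7a, Atp7b, Slc31a1, Slc31a2, Atox1, Ccs, Commd1 and Cox17. They were found on the array by gene symbol, and 14 of the 30367 gene probes carry one of these symbols (10 of 19337 named genes), with 3 probes for Cp, 2 each for Atp7b and Slc31a2, and 1 for each of the others. Weanling male Sprague-Dawley rats were fed an iron-deficient (FeD, 5 ppm iron), an iron-adequate (FeA, 35 ppm by the sample labels) or an iron-overloaded (FeO, 20275 ppm) purified diet for 3 weeks and were fasted overnight before their pancreases were taken. Whole-pancreas RNA of 6 rats was combined into 1 pool per diet. Each of the FeD and FeO pools was set against FeA on a pair of two-colour arrays, array 1 with the diet in Cy5 and array 2 with the dyes exchanged. The question put to these genes was whether the RNA of the copper pathway differs in the pancreas when dietary iron is too low or too high.

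Iron and copper metabolism meet at the multicopper ferroxidases, which need copper to turn ferrous into ferric iron so that transferrin can bind it. Ceruloplasmin (Cp) is the plasma ferroxidase, secreted mainly by the liver and raised in the acute phase, and hephaestin (Heph) is its membrane-bound relative, best known from the enterocyte. Copper enters cells through the high-affinity transporter Slc31a1 (Ctr1), with Slc31a2 (Ctr2) its relative in intracellular membranes. Inside the cell the chaperone Atox1 takes copper to the P-type ATPases Atp7a and Atp7b, which load secreted cuproenzymes and export copper, Ccs takes it to superoxide dismutase, Cox17 to the mitochondrion for cytochrome c oxidase, and Commd1 takes part in the trafficking of the ATPases.

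Each value below is a log2 ratio of the diet over FeA, computed within an array after background correction and normalisation, so that 0 means equal signal and 1 a doubling. Since both arrays of a comparison carry RNA from identical pools, they count as 1 replicate, their spread is technical, and no test of a diet was possible. In whole tissue, fewer cells of a type and less RNA per cell cannot be told apart. Between 61.9% and 71.5% of the spots in a channel were well above background by the scanner software. The pools carried the RNA of pancreas: each of the 10 acinar markers was well above background in FeD, FeA and FeO on both arrays of each comparison. Signals of other cell types also differed between the pools. By the size criterion given next, the lower signals included 6 of 9 intestinal epithelial markers in the FeD pool and 7 of 9 in the FeO pool. The higher signals included 0 of 6 adipocyte markers in the FeD pool and 4 of 7 in the FeO pool.

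No copper transport or ferroxidase gene reached the size criterion in either diet. A gene was counted as higher when both arrays gave a positive ratio and their mean was 0.5 or more, and as lower when both were negative and their mean was -0.5 or less, for a probe well above background in at least 1 of the 2 pools. By this criterion 0 of the 10 genes counted as higher in FeD and 0 as lower, where 1.76% of all 17513 probes were higher and 0.976% lower. In FeO 0 of the 10 were higher and 0 lower, where 3.37% of all 18315 probes were higher and 2.03% lower. Of the 14 probes, 13 were well above background in at least 1 pool, and their mean ratios lay between -0.32 and 0.35 in FeD and between -0.37 and 0.29 in FeO, or 0.773 to 1.28 of the FeA signal as a fold. The median over the 10 genes was -0.07 in FeD and -0.10 in FeO, against medians of 0.01 and 0.01 over all probes.

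**Figure D1:**
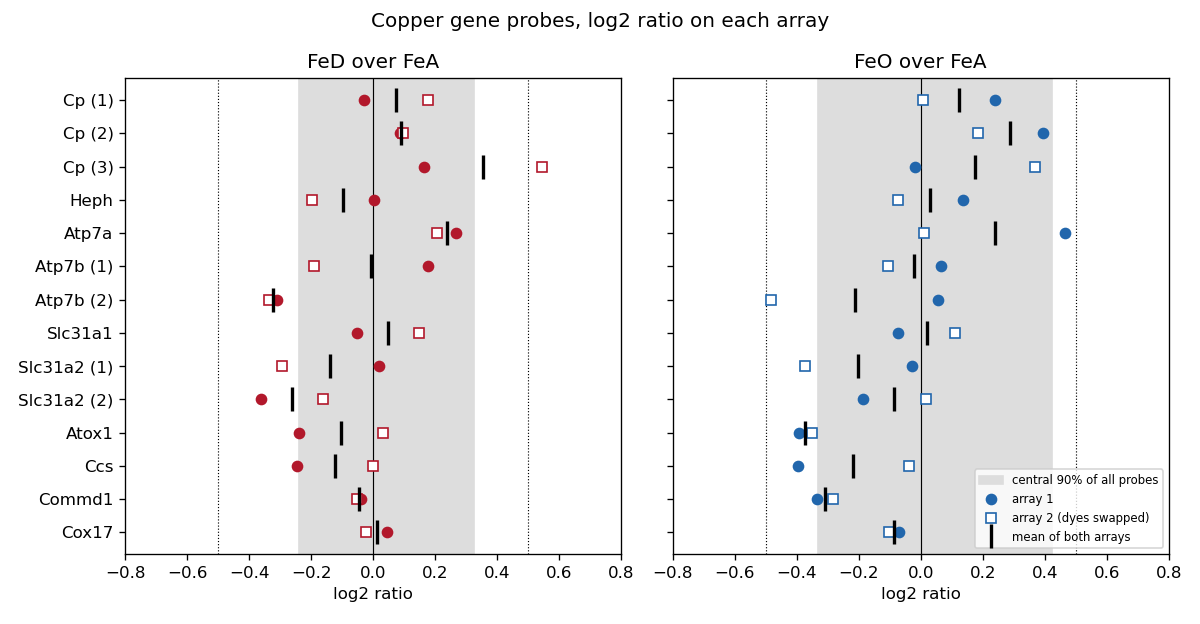
Log2 ratio of FeD over FeA (left) and of FeO over FeA (right) for each of the 14 probes, with the number of the probe in brackets where a gene has several. Filled circles stand for array 1, open squares for the dye-swapped array 2 and black bars for their mean, the grey band holds the central 90% of all probes above background, and dotted lines mark 0.5 in either direction. Every mean lies between the dotted lines, and Cp (3) in FeD on array 2, at 0.54, is the only single-array value outside them.

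The arrays agreed in sign about as often for these genes as for any others, and over all probes their agreement was weak. The Spearman correlation of the 2 arrays over all probes above background was -0.06 in FeD and 0.12 in FeO (Pearson 0.18 and 0.41). In FeD, 6 of the 13 probes (46.2%) had the same sign on both arrays, against 46.4% of all probes. Of these, 3 were positive (24.9% of all probes were) and 3 negative (21.5%). In FeO the signs matched for 7 of 13 (53.8%) against 51.9% of all probes, with 2 positive (27.8%) and 5 negative (24.1%). The FeA pool was measured on all 4 arrays, which gives a second view of the spread. After scaling the arrays to a common intensity distribution, the levels of a diet were read against the 4 FeA levels. In FeD, 1 probe had both of its levels above all 4 FeA levels (10.8% of all probes did) and 2 had both below (8.93%). In FeO, 1 probe lay above (13.9%) and 3 lay below (11.5%).

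**Figure D2:**
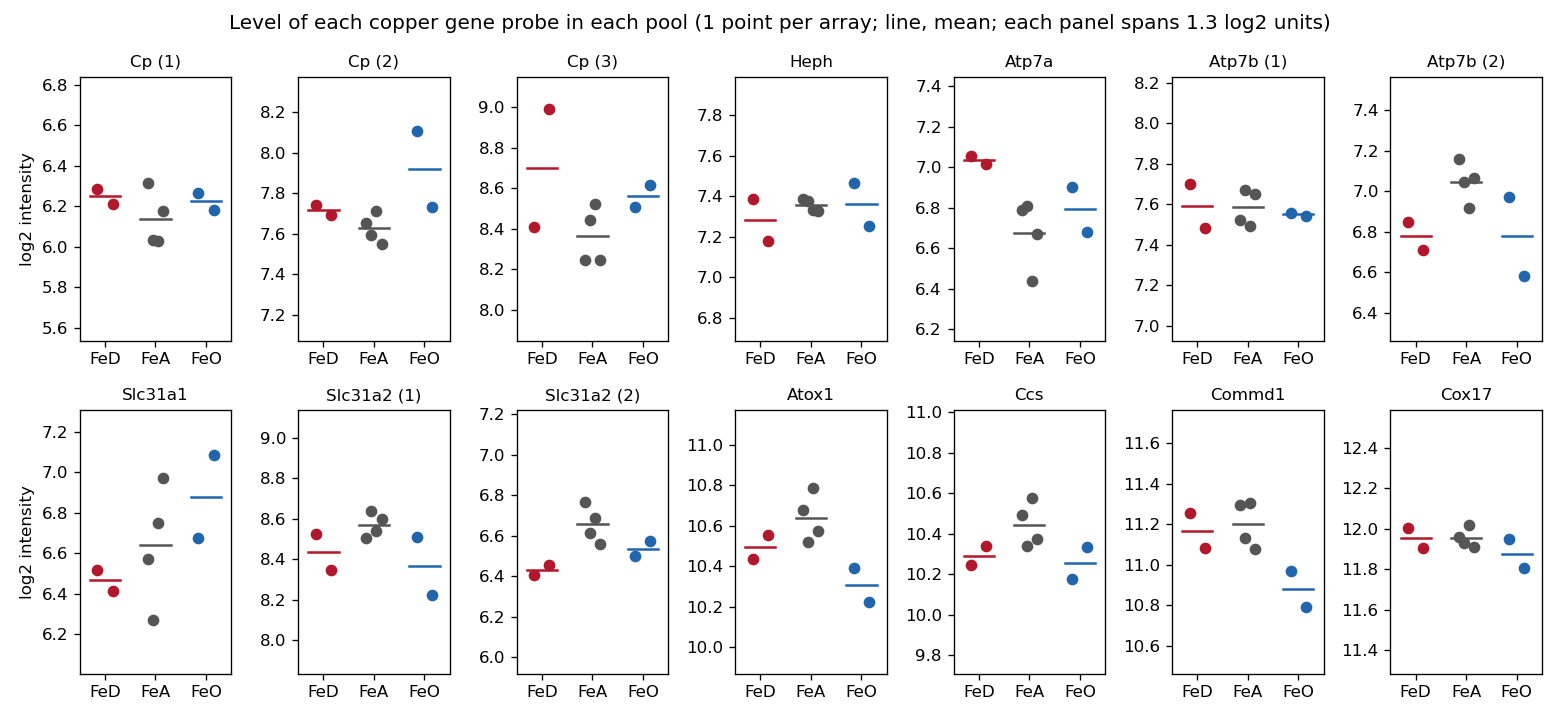
Log2 intensity of each of the 14 probes in the FeD pool (2 arrays), the FeA pool (4 arrays) and the FeO pool (2 arrays), with 1 point per array and a line at the mean; intensities of different probes are not comparable. The FeO points of Atox1 and Commd1 lie below all FeA points and the FeD points of Atp7a lie above them, whereas the 4 FeA points of Slc31a1 are spread over 0.70.

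Among the ferroxidases, Cp showed small positive mean ratios and Heph means close to 0. The array has 3 Cp probes. Probes 1 and 2 (A_43_P11448 and A_64_P036925) are listed under NM_012532 and probe 3 (A_64_P092201) under AF202115. Probe 1 was below the detection criterion in every pool, so it carries no ratio to interpret. For probe 2, both FeD arrays gave 0.09 (mean 0.09), and the FeO arrays gave 0.40 and 0.18 (mean 0.29 ± 0.15, SD over the 2 arrays). Its levels were 7.65, 7.60, 7.71 and 7.55 in FeA, 7.74 and 7.69 in FeD, and 8.11 and 7.73 in FeO. The FeO levels lay above all 4 FeA levels, although array 2 cleared the highest of them by only a small margin, and the FeD levels overlapped FeA. Probe 3 gave a different order, with 0.16 and 0.54 in FeD (mean 0.35 ± 0.27) and -0.02 and 0.37 in FeO (mean 0.18 ± 0.27). In both comparisons array 2 was the higher, and the levels of probe 3 overlapped those of FeA in both diets. So both detected Cp probes had positive means in both diets, but they disagreed on which diet was the higher.

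Of 8 acute-phase genes, a group to which Cp is usually counted, 4 were above background in FeD with a median log2 ratio of 0.08 and 6 in FeO with a median of 0.23. The iron-sequestering lipocalin Lcn2 was the highest, at 0.66 in FeD and 1.15 in FeO, and the detected hepatocyte markers (3 of 8) went different ways. Alb had 0.20 in FeD and 0.62 in FeO, Serpina1 -0.15 and 0.03, and Apob -0.45 and -0.71. The part of such genes in the Cp values was not tested. Heph gave 0.00 and -0.20 on the FeD arrays (mean -0.10 ± 0.14), and 0.14 and -0.07 on the FeO arrays (mean 0.03 ± 0.15). Its FeA levels were 7.38, 7.38, 7.33 and 7.33, a range of 0.06. In both diets the level on array 1 lay above this range and that on array 2 below it. These levels were 7.39 and 7.18 in FeD, and 7.47 and 7.25 in FeO. In the same pools the median intestinal epithelial marker had a log2 ratio of -1.37 in FeD and -1.70 in FeO. That list ran from -2.10 (Tff3) to 0.16 (Cdx1) in FeD and from -2.38 (Tff3) to 0.13 (Cdx1) in FeO. The part of intestinal cells in the Heph signal was not tested.

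Of the copper-exporting ATPases, Atp7a and 1 of 2 Atp7b probes had more similar ratios on the arrays of FeD than of FeO. The other Atp7b probe had the reverse. Atp7a stood at 0.27 and 0.21 on the FeD arrays (mean 0.24 ± 0.04) and at 0.47 and 0.01 on the FeO arrays (mean 0.24 ± 0.32). The means of both diets were equal to 2 decimals, but the FeO mean came from array 1 alone. Its levels were 6.79, 6.81, 6.44 and 6.67 in FeA, 7.06 and 7.01 in FeD, and 6.90 and 6.68 in FeO, so that FeD lay above FeA and FeO overlapped it. Atp7b has 2 probes, both listed under NM_012511. For probe 1 (A_64_P017640) the arrays differed in sign in both diets, at 0.18 and -0.19 for FeD (mean -0.01) and 0.06 and -0.11 for FeO (mean -0.02). Probe 2 (A_64_P017645) had -0.31 and -0.33 in FeD (mean -0.32 ± 0.02) and 0.06 and -0.48 in FeO (mean -0.21 ± 0.38). In FeD its levels of 6.85 and 6.71 lay below the FeA levels of 7.16, 7.05, 6.92 and 7.06, and in FeO its levels of 6.97 and 6.58 overlapped them. The lower FeD signal of Atp7b was therefore seen by 1 of its 2 probes.

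The levels of Slc31a1 and of Slc31a2 probe 1 overlapped FeA in both diets. Those of the dim Slc31a2 probe 2 lay below FeA in FeD only. Slc31a1 also differed in sign between arrays, with -0.05 and 0.15 for FeD (mean 0.05 ± 0.14) and -0.07 and 0.11 for FeO (mean 0.02 ± 0.13). Its FeA levels ran from 6.27 to 6.97, the widest range of any of the 14 probes. Slc31a2 lies beside Slc31a1 on rat chromosome 5, with only Fkbp15 between them in the GRCr8 annotation. Its probe 1 (A_42_P598560) is printed in 10 spots on each array, and the spots had a mean ratio of 0.02 ± 0.19 (SD over 10 spots) on array 1 and of -0.29 ± 0.17 on array 2 of FeD. On the FeO arrays they had -0.03 ± 0.11 and -0.37 ± 0.15. Array 2 was thus lower than array 1 by a similar amount in both comparisons, and the means of both arrays were -0.14 in FeD and -0.20 in FeO. The FeO levels of probe 1 were 8.51 and 8.22. They overlapped FeA only narrowly, since the lowest FeA level was also 8.51 to 2 decimals. Probe 2 (A_44_P222726), whose FeD signal cleared the background on only 1 array, had -0.36 and -0.16 in FeD (mean -0.26 ± 0.14) and -0.19 and 0.02 in FeO (mean -0.09 ± 0.14). Its FeD levels of 6.41 and 6.45 lay below the FeA levels, the lowest of which was 6.56, and the FeO levels overlapped them.

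Atox1 and Commd1 had the lowest mean ratios of the 10 genes in FeO, although with an offset of 0 or with processed signals Atp7b probe 2 was lower. Atox1, the chaperone of the ATPases, had -0.39 and -0.35 in FeO (mean -0.37 ± 0.03), or 0.773 of the FeA signal. Its levels were 10.68, 10.52, 10.78 and 10.57 in FeA and 10.39 and 10.22 in FeO, which do not overlap, whereas the FeD levels of 10.44 and 10.55 overlapped FeA (ratios -0.24 and 0.03, mean -0.10 ± 0.19). Commd1 showed the same arrangement, with -0.33 and -0.28 for FeO (mean -0.31 ± 0.04) beside -0.04 and -0.05 for FeD (mean -0.05 ± 0.01). Its FeO levels of 10.97 and 10.79 lay below the FeA levels of 11.29, 11.13, 11.30 and 11.08. Ccs, the chaperone of superoxide dismutase, had -0.40 and -0.04 in FeO (mean -0.22 ± 0.25) and -0.25 and 0.00 in FeD (mean -0.12 ± 0.17). Its FeO levels of 10.18 and 10.34 lay just below FeA, where the levels were 10.49, 10.34, 10.58 and 10.38, so that the nearest values are equal to 2 decimals. The FeD levels of 10.24 and 10.34 overlapped FeA. The mitochondrial chaperone Cox17 had 0.04 and -0.02 in FeD (mean 0.01 ± 0.05) and -0.07 and -0.10 in FeO (mean -0.09 ± 0.02). The difference between FeD and FeO was not tested for any of these genes, since both comparisons share the FeA pool.

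How far these ratios reached depended on the processing for some dim probes. With normexp at an offset of 0 in place of 50, Atp7b probe 2 had a mean of -0.57 and Slc31a2 probe 2 of -0.56 in FeD, and Atp7a had 0.53 in FeO, so that each passed the size criterion. The processed signals of the scanner software differ from the values above in background subtraction, detrending and dye normalisation together, and with them Atp7a had 0.80, Atp7b probe 2 -0.52 and Slc31a2 probe 2 -0.69 in FeD, and Atp7b probe 2 -0.70 in FeO. The levels of these probes, from 6.41 to 7.16, were close to the lowest signal well above background, which lay between 6.01 and 6.35 on the 4 arrays. In FeO the bright Atox1 probe ranged from -0.41 to -0.31 and Commd1 from -0.35 to -0.24 over the 5 alternatives plotted next, where median centring gave the values nearest to 0.

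**Figure D3:**
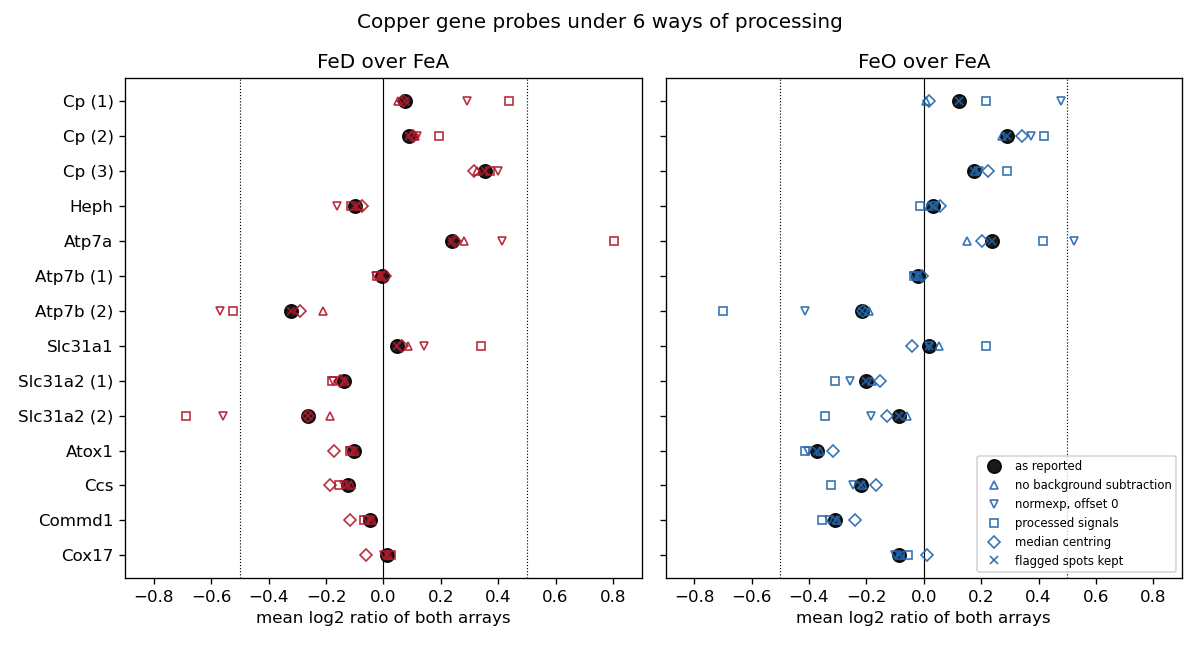
Mean log2 ratio of both arrays for each of the 14 probes in FeD over FeA (left) and FeO over FeA (right), as reported (black circles) and under 5 other ways of processing (open coloured symbols); dotted lines mark 0.5 in either direction. The symbols of Atp7a, Atp7b (2) and Slc31a2 (2) are spread widely, and those of Atox1, Commd1, Heph and Cox17 lie close together.

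To set these genes in their pathway, 52 other copper genes in 5 lists were read in the same way. Of these, 48 are on the array, 38 were above background in FeD and 37 in FeO. In FeD 0 were higher and 2 lower, where 1.76% of all probes were higher and 0.976% lower. In FeO 3 were higher and 2 lower, where 3.37% of all probes were higher and 2.03% lower. These shares count probes, not genes. The median log2 ratio of the detected genes was -0.02 in FeD and -0.02 in FeO. The genes past the criterion in FeD were the metallothionein Mt2A, whose 2 probes gave -0.69 and -0.44, and Cybrd1, a ferric and cupric reductase of the gut brush border, at -0.62. The FeD signal of Cybrd1 cleared the background on 1 array, and its FeD ratio went the same way as the median of the intestinal markers. In FeO, where that median was -1.70, Cybrd1 had 0.43 and -0.21 (mean 0.11). The part of intestinal cells in the Cybrd1 ratios was not tested.

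In FeO the metal-binding metallothioneins Mt1a and Mt2A had the lowest mean ratios of the copper genes read. Mt1a had log2 ratios of -2.29 and -1.80 (mean -2.05), and the 2 probes of Mt2A gave means of -1.95 and -2.03. In FeD, Mt1a had -0.22 and -0.30 (mean -0.26). The third metallothionein read, Mt3, did not pass the size criterion and was not well above background in the FeD or the FeO pool. Higher in FeO were the copper amine oxidase Aoc3 (1.51 and 1.25, mean 1.38), the extracellular superoxide dismutase Sod3 (0.77 and 1.33, mean 1.05) and the metalloreductase Steap4, for which 1 probe gave 1.25 and 0.87 (mean 1.06) and the other a mean of 0.13. Aoc3 and Steap4 are known from adipose tissue. The 7 adipocyte markers detected in FeO had a median log2 ratio of 1.92, from 0.10 for Lep to 2.30 for Cfd, and their part in the 3 values was not tested. In FeD the adipocyte median was -0.07, where Aoc3 had a mean of 0.06 and Sod3 of 0.19. The Steap4 probe that was higher in FeO had 0.54 and 0.24 in FeD (mean 0.39), and the other a mean of 0.05. Detected markers of mesothelium (3 of 4), fibroblasts and stellate cells (3 of 6) and macrophages (2 of 6) were also higher in FeO, with 0 lower in each list. Their part was not tested either.

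**Figure D4:**
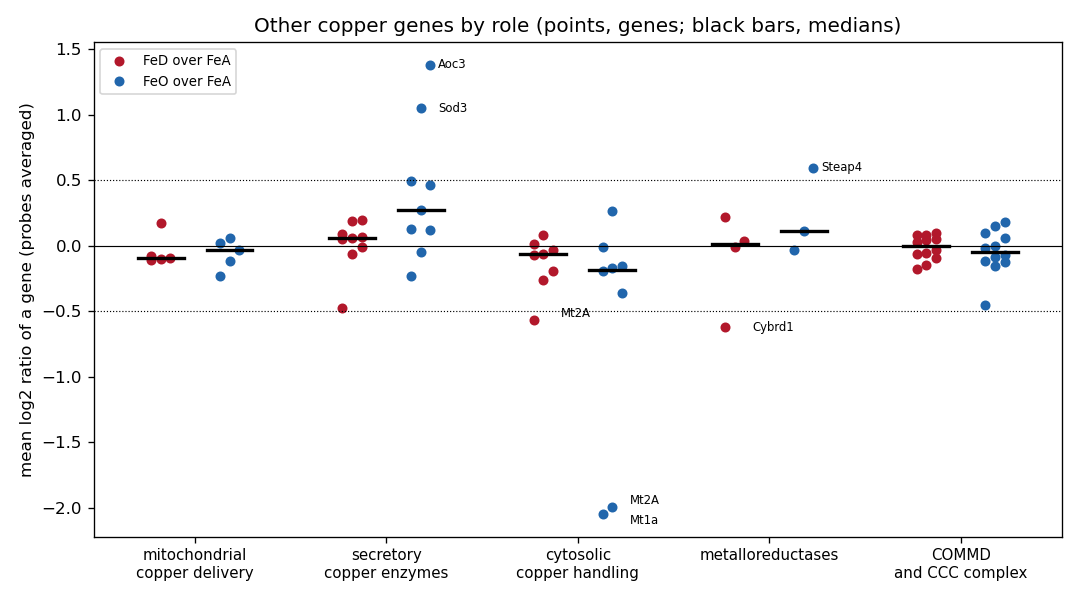
Mean log2 ratio of each detected gene (its probes averaged) of 5 lists of other copper genes, by role on the x axis, in FeD over FeA (red) and FeO over FeA (blue); black bars mark the median of a list, dotted lines mark 0.5 in either direction, and genes at or beyond them are named. Mt1a and Mt2A stand near -2 in FeO and Aoc3 and Sod3 above 1, whereas the COMMD and mitochondrial lists stay within 0.5 of 0.

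Of 12 genes of the COMMD family and the complex it works in, 0 were higher or lower in either diet. Of all probes, 1.76% were higher and 0.976% lower in FeD, and 3.37% higher and 2.03% lower in FeO. The medians of these 12 genes were -0.00 in FeD and -0.04 in FeO, and Commd10 was the lowest in both, at -0.18 and -0.45. The highest were Commd4 in FeD (0.09) and Ccdc22 in FeO (0.18). The mitochondrial list, which delivers copper to cytochrome c oxidase as Cox17 does, had 5 detected genes with medians of -0.09 and -0.03. It ran from -0.11 (Chchd4) to 0.17 (Cmc1) in FeD and from -0.23 (Cox19) to 0.06 (Slc25a3) in FeO. Sod1, the enzyme that Ccs serves, differed in sign between arrays, at 0.33 and -0.31 for FeD (mean 0.01) and 0.03 and -0.42 for FeO (mean -0.19).

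The promoter windows of 2 of the chaperones and of the metallothionein are printed because Mt1a and Mt2A, the copper genes with the lowest mean ratios in FeO, are known targets of the metal-responsive factor MTF-1, which binds the metal response element. The core of that element was searched as TGCACNC or TGCGCNC on both strands in the 250 bases before each gene start (RefSeq, GRCr8, the strand of the gene, 5′ to 3′), and matches are in capitals, where touching matches run together. Mt1 is the current RefSeq symbol of the gene the array lists as Mt1a.

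Atox1, chr10:40080562-40080811, minus strand: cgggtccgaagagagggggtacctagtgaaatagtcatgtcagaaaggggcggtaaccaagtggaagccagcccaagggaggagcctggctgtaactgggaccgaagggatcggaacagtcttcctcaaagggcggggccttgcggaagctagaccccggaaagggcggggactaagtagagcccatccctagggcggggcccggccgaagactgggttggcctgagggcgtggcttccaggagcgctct
Ccs, chr1:211564261-211564510, minus strand: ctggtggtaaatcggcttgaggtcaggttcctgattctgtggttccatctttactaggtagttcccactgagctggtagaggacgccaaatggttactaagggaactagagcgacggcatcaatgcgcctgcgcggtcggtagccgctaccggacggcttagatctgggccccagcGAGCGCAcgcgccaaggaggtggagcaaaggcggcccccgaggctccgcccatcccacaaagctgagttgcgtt
Mt1, chr19:10832976-10833225, minus strand: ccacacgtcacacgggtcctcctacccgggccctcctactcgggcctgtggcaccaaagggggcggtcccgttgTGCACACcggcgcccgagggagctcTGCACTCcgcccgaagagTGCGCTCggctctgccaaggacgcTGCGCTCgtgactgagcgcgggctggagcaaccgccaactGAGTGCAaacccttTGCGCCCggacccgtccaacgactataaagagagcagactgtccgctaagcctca

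The Mt1 window held 6 matches, that of Ccs 1 and that of Atox1 0. All 10 genes had a window in the table, and 5 of them (Atp7b, Ccs, Commd1, Cox17 and Slc31a2) held at least 1 match, against 20.6% of the 33469 windows. The core of the hypoxia response element, searched as ACGTG on both strands, was found in the window of Slc31a2 alone, against 16.6% of all windows. A match shows only that these letters occur there. The array was designed on rn4, so no coordinates of probes are given on this build.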

How the data were processed

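The samples are 4 two-colour Agilent rat arrays, designed on rn4. The labels number them as slides 1 to 4, and the headers give 1 slide barcode and 1 scan with array positions 1 to 4. Per the file headers, Feature Extraction 10.1.1.1 produced the deposited intensity values: uncorrected medians of each spot and its local background, and processed signals (background subtracted, spatially detrended, dye normalised), with flags for outliers and for signal well above background. Tables in which the authors give fold changes, p-values and q-values served only to name probes by symbol (22949 of 30367).

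With limma 3.58.1 under R 4.3.3, the medians were background corrected (normexp, offset 50) and normalised by loess within each array. Control spots and outliers were left out, spots of a probe were averaged, and the sign of the swapped array was turned. A probe was read when more than 50% of its spots were well above background on both arrays in at least 1 pool. Levels were scaled between arrays by Aquantile. Scripts were checked on simulated data. There, log2 changes of 0.75 were measured as 0.571 on average, and 62.1% of them passed the size criterion. Of changes of 1, 85.1% passed in FeD and 83.6% in FeO. Precision is limited by 2 arrays and 1 pool of 6 rats per diet, and the offset of 50 draws dim ratios towards 0. List genes were matched by accession in the RefSeq table, or by symbol.

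Members, lists and criteria were chosen with earlier results of these data known. All 10 genes are named, and of the other copper genes those past 0.5 in either diet and the extremes of the mitochondrial and COMMD lists. The highest and lowest of the other lists are not all named. Sod1, Mt3, Alb, Serpina1, Apob and the second Steap4 probe were named after their values were seen. The same holds for Mt1a, Aoc3, Sod3 and Steap4 in FeD and for Cybrd1 in FeO. Other settings tried were background left unsubtracted, an offset of 0, processed signals, median centring, other filters and sizes, the brightest probe, flagged spots kept, each array left out, and the methods' t-test and limma as tests of technical error.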

Additional observations from a re-analysis of the deposited data

Results flagged for a closer look

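Of the marker lists read beside the copper genes, 2 had medians of opposite direction on both arrays of FeD and both arrays of FeO. For the lymphocyte markers the median log2 ratio was 0.53 in FeD, with 0.48 on array 1 and 0.56 on array 2, over 8 genes. It was -0.43 in FeO over 7 genes, where array 1 gave -0.42 and array 2 gave -0.44. For the acinar markers the FeO median was -0.36, with -0.26 on array 1 and -0.49 on array 2, over 6 of the 10 genes, since the spots of Cpa1, Cela2a, Prss1 and Gp2 were outliers on array 2. Their FeD median, over all 10 genes, was -0.027 when taken over the genes' mean ratios, although the medians of the single arrays were positive, at 0.09 and 0.02. The differences between FeD and FeO were not tested, and both share the FeA pool. No copper transport or ferroxidase gene had opposite signs on both arrays of the 2 diets.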

How the results depend on the processing

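No paired analysis was possible because each diet is 1 RNA pool and the 2 arrays of a comparison are the same pools. The count of 0 higher and 0 lower among the 10 genes held in both diets with no background subtraction, median centring, flagged spots kept and no filter. Larger sizes, a stricter filter and the brightest probe could not raise it. With an offset of 0, 2 were lower in FeD and 1 higher in FeO, and with the processed signals 1 was higher and 2 lower in FeD and 1 lower in FeO. The shares of all probes given above belong to the processing as reported. None is given for the other settings, so their counts, also those of the other copper genes, have no share beside them. With either array left out, 0 to 1 were higher in FeD (1, Cp, without array 1) and 0 otherwise. Of 13 member probes, the methods' t-test on channel levels put 1 (Atp7a) below its threshold in FeD and 0 in FeO. Over all probes it put 1084 of 17513 in FeD and 1465 of 18315 in FeO below it. After Benjamini-Hochberg the t-test left 0, both of the member probes and of all probes. Unadjusted limma put 0 in FeD and 1 (Atox1) in FeO below it, against 1067 of 17513 and 1613 of 18315 of all probes. After adjustment limma left 0 member probes (103 and 153 of all probes). Both measure technical error alone.

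Of the other copper genes, in FeD 0 were higher and 2 lower. Lower in FeD were 1 with no background subtraction, with both pools above background, with the brightest probe or with the methods' t-test, 0 at sizes of 1 or 2, with the adjusted t-test or with limma, and 4 with an offset of 0 or the processed signals, which each gave 1 higher. With an array left out, 0 to 1 were higher and 2 to 2 lower. In FeO 3 were higher and 2 lower. An offset of 0 gave 5 higher and 5 lower, the processed signals 6 and 4, a size of 2 gave 0 higher, the adjusted t-test 0 and 0, and limma 1 higher. With an array left out, 4 to 6 were higher and 2 to 3 lower (6 without array 1). The cause was not tested. Signal over background limits Cp probe 1, undetected in every pool, and Slc31a2 probe 2, detected in FeD on 1 array.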
